A study of Mus musculus with 5 samples.

Results

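The outermost bins of assembled genes were examined in the RNA of mouse embryonic stem cells, which are grown from early embryos and can form every tissue of the body. A bin is a stretch of exon in which the set of overlapping transcripts does not change, and reads were counted per bin. The members were bin 1 and the highest-numbered bin of every gene that carries an assembly ID of the form MSTRG plus a number and has at least 10 bins. Of 13683 assembled genes, 6858 met this rule, which gave 6858 first and 6858 last bins, or 13716 of 243715 bins in all. These genes had 10 to 229 bins, with a median of 16, and their remaining 118938 bins are called inner bins here.

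The labels give 3 wildtype libraries (wildtype 1 to 3) and 2 from cells lacking the -45 super-enhancer (deleted 1 and 2), a dense enhancer cluster of the pluripotency gene Nanog. The treatment entry in the labels, the same for both genotypes, was ethanol vehicle or tamoxifen (4OHT) for 6 days, and which library received which is not given there. If the treatment differed between the groups, its effect cannot be told apart from that of the deletion in any result below. The design text speaks of 3 replicates for each genotype, and the third deletion library was not analysed here. Whether the libraries are separate cultures, or 1 or more clones, is not stated. The p-values therefore measure the spread between these libraries only, and that spread may be technical.

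The ends of a transcript are set by where RNA polymerase starts and where the RNA is cleaved and given its poly(A) tail. Many mammalian genes have several promoters and several poly(A) sites, and a cell can change the first or last exon it uses without changing how much RNA the gene makes. In a binned gene model, such a change appears as a change in the share of the gene's counts that falls in an outer bin. Transcript assembly draws gene ends from read coverage, so the outermost bin can be a whole terminal exon or only a sliver added by 1 long transcript. DEXSeq, the tool the deposited table is named for, numbers bins along the chromosome whatever the strand, so a first bin can hold either the start or the end of a transcript. The table identifies a bin by its gene and number, while the sources used here give no bin position, length, strand or symbol for these IDs. The 2 kinds of end are therefore reported side by side, and genes are named by their IDs.

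Totals of bin counts were 114838177 to 213042064 in wildtype and 93574214 and 99133883 in deleted libraries, and member genes held 67.9% to 70.5% of them. First bins alone received 3784219 to 9251147 counts per library and last bins 4352444 to 10713939. Wildtype 3 was the deepest library and stood apart: over the 9879 tested outer bins, the chi-square per degree of freedom was 13.7 and 12.5 against wildtype 1 and 2, 3.11 between those 2 and 3.91 between the deleted libraries. How reads that span several bins were counted is not stated, so neighbouring bins may share reads. None of 10 fixed stem cell markers, such as Sox2 and Klf4, had a row under its symbol, so the labelled cell type was not checked. Of 7 fibroblast markers, which would show feeder cells, 6 had rows, with a summed level of 1.14 to 1.31 CPM (counts scaled to a common library total) in wildtype and 1.66 and 1.81 CPM in deleted libraries. Nearly all of it came from Col1a1 and Col1a2. Col1a1 was at 0.731 to 0.887 CPM in wildtype and 0.940 and 0.878 CPM in deleted libraries. Col1a2 was at 0.392 to 0.487 CPM in wildtype and 0.855 and 0.736 CPM in deleted libraries. Postn and Lum were at 0 in every wildtype library and Dcn in every deleted one, and the part of such cells in the results below was not tested.

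Outer bins were uneven. The first bin held a median of 3.57% of its gene's counts, with quartiles of 0.156% and 13.0%, and the last bin a median of 4.07% with quartiles of 0.225% and 13.6%. With equal counts in every bin of a gene, 1 bin would hold 6.23% on average. In 24.3% of the genes the first bin was the most counted bin and in 25.8% the last. The last bin held more than the first in 3482 genes and less in 3296, so neither end was generally the larger one. At the other extreme, 360 first and 402 last bins had no count in any library.

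Across all member genes together, both outer bins held a smaller share of the counts in the deleted cells. First bins held 6.14%, 6.20% and 6.16% of the counts in wildtype 1, 2 and 3, against 5.96% and 5.95% in deleted 1 and 2. The deleted libraries were both below all 3 wildtype libraries, with group means of 5.95% ± 0.00916 (SD, n = 2) and 6.16% ± 0.0275 (SD, n = 3). Last bins held 7.15%, 7.19% and 7.13% in wildtype and 6.85% and 6.91% in deleted libraries, again with no overlap. Inner bins made up the rest, at 86.6% to 86.7% in wildtype and 87.1% and 87.2% in deleted libraries. These shares are over members chosen with earlier results known, and carry no test.

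**Figure D1:**
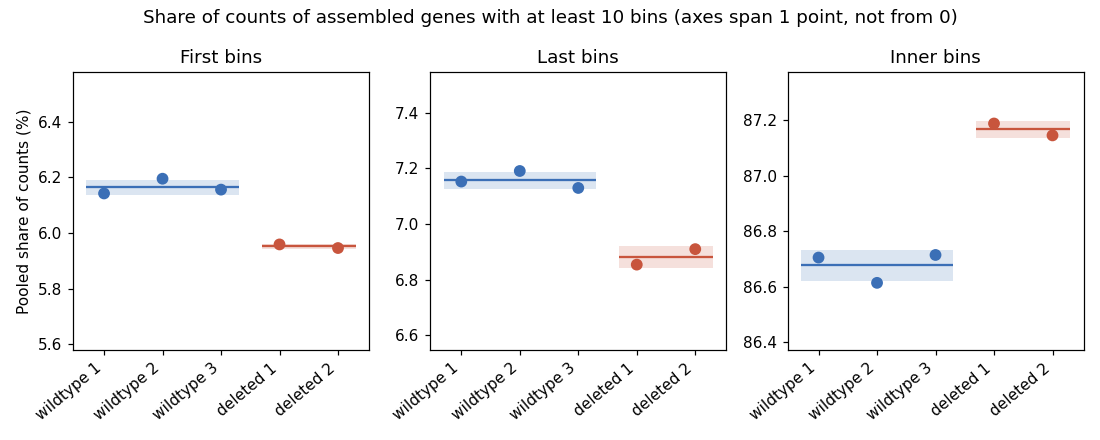
Share of the summed counts of assembled genes with at least 10 bins that lies in first, last and inner bins, in percent, 1 point per library. Lines are group means and bands ± 1 SD (wildtype n = 3, deleted n = 2), and each axis spans 1 percentage point and does not start at 0. Both deleted libraries lie below all wildtype libraries for first and last bins and above them for inner bins.

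Giving each gene the same weight, the mean share of the first bin was 10.01% to 10.12% in wildtype and 9.81% and 9.87% in deleted libraries. For the last bin the mean was 10.6% to 10.7% against 10.4% and 10.5%. The median over genes did not separate the groups: for the first bin it was 3.43% to 3.52% in wildtype and 3.38% and 3.65% in deleted libraries, and for the last bin 3.89% to 4.15% against 3.94% and 4.19%. The groups were thus apart in the mean and overlapped in the median. Without the 130 genes that had a called outer bin (below), the pooled shares still did not overlap, with 6.26% to 6.30% against 6.08% and 6.10% for first bins and 7.23% to 7.29% against 6.97% and 7.02% for last bins.

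At positions 2 to 5 from either end the deleted libraries were not both below all wildtype ones. The second bin from the first end held 5.72% to 5.90% of the counts in wildtype and 5.86% and 5.92% in deleted libraries, and the second from the last end 5.31% to 5.45% against 5.32% and 5.42%, with overlap at both. The third bin from the first end was slightly higher in the deleted libraries, at 5.89% and 5.88% against 5.61% to 5.84%, and so was position 4, at 5.61% and 5.58% against 5.36% to 5.55%. Wildtype 3 was the lowest library at positions 2 to 5 from both ends, so the wildtype range there is mostly its distance from wildtype 1 and 2.

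Each bin was then tested for a change in its share relative to its gene (edgeR, Benjamini-Hochberg adjusted p under 0.05 over all 149501 bins with enough counts). Of all tested bins, 540 passed (0.361%), 419 used less in the deleted cells (0.28%) and 121 used more (0.0809%). Of 4895 tested first bins, 80 passed (1.63%), 70 used less and 10 used more. Of 4984 tested last bins, 51 passed (1.02%), 48 used less and 3 used more. Inner bins of the same genes passed in 334 of 103789 cases (0.322%), 242 used less and 92 used more. The share called was thus above that of all tested bins at both ends and near it in the inner bins.

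At unadjusted p under 0.05, 7.31% of first bins and 6.40% of last bins passed, against 2.52% of inner bins. Among those, 253 first bins were used less and 105 more, and 220 last bins less and 99 more, while inner bins were split into 1396 and 1219. The median log2 change was −0.00212 for first, −1.52e-05 for last and 0.00466 for inner bins, and 2486 of 4895 first and 2492 of 4984 last bins had a negative value. The ends of the distribution lay further out, with the 5th percentile of the log2 change at −0.50 for first, −0.44 for last and −0.33 for inner bins. The 95th percentile was 0.39, 0.37 and 0.32. Of all members, 71.4% of first and 72.7% of last bins had enough counts to be tested, against 87.3% of inner bins. The filter asks for enough counts in as many libraries as the smaller group has, so a bin low in one genotype was tested only if it was high in the other. This is not symmetric: a bin low in deleted cells could pass on some of the wildtype libraries, while a bin low in wildtype needed both deleted ones. With no low-count filter, first bins used less and more numbered 63 and 11, and last bins 41 and 4. The part of the deeper wildtype sequencing in this split was not tested.

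**Figure D2:**
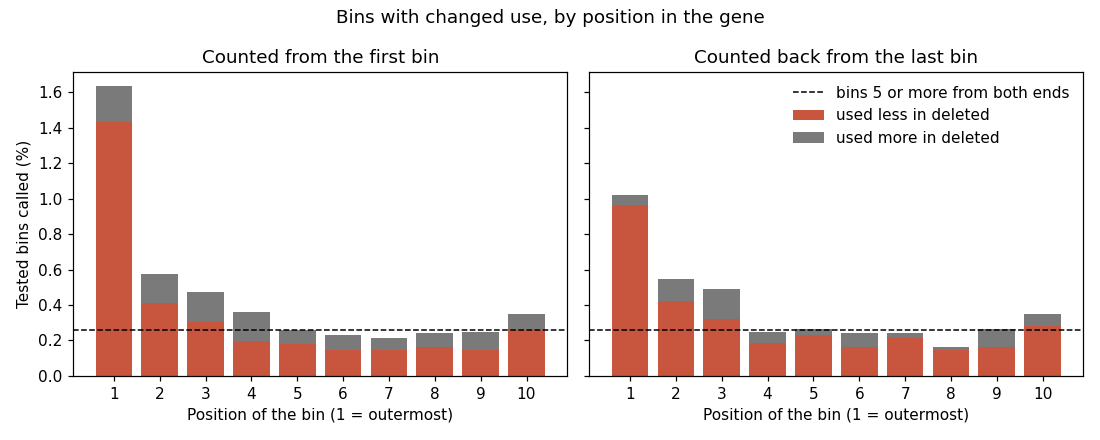
Percent of tested bins whose use differed (edgeR adjusted p under 0.05), by position counted from the first bin (left) and back from the last bin (right), split into bins used less and more in deleted cells. The dashed line is the 0.257% of bins 5 or more steps from both ends. The outermost position stands at 1.63% and 1.02% and the second at 0.574% and 0.546%.

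The share of called bins declined over the first positions from either end. It was 1.63%, 0.574%, 0.476% and 0.364% for positions 1 to 4 from the first end, and 1.02%, 0.546%, 0.488% and 0.249% from the last end. Among the 56415 tested bins 5 or more steps from both ends it was 0.257%, with 110 used less and 35 more. Less use was also more common among called outer bins than among called inner bins as a whole. By single position the split varied, on few calls. It was 9 less and 1 more at position 8 from the last end, and 12 and 10 at position 4 from the first. Of called first bins 87.5% and of called last bins 94.1% were used less, against 72.5% of called inner bins and 77.6% of all called bins. The split of inner bins depended on the libraries and the tool, as it was 60.7% without wildtype 3 and 62.8% with DESeq2, while that of first bins was 84.5% and 86.3% and that of last bins 91.6% and 92.2%.

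**Figure D3:**
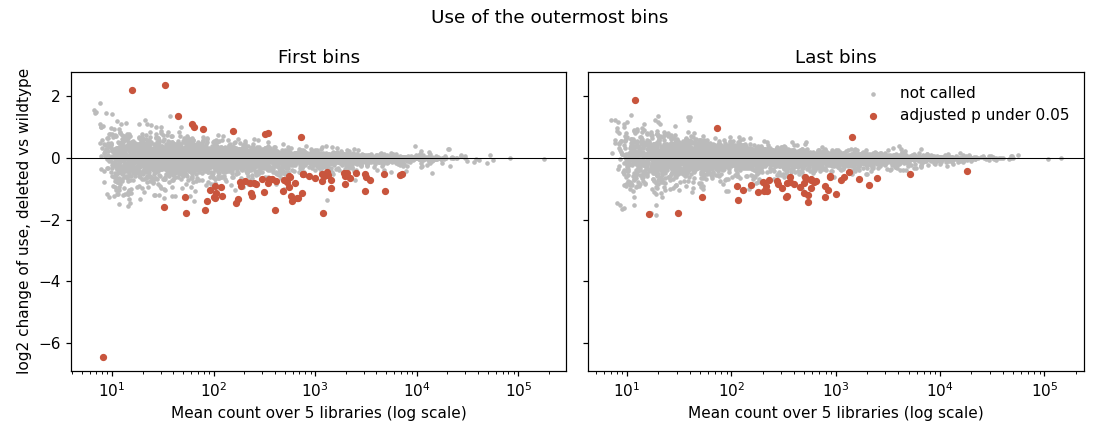
Change of use of each tested first bin (left) and last bin (right) on the log2 scale, deleted against wildtype, over the mean count of the bin in 5 libraries (log axis). Red points passed at edgeR adjusted p under 0.05. The called bins lie mostly below 0, and most unchanged bins lie close to it.

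Outer bins were less counted than inner ones, with a median over bins of the mean count of 82.9 for first, 103 for last and 140 for inner bins. In bins averaging under 50 counts, 5 of 1063 first bins (0.470%), 3 of 976 last bins (0.307%) and 76 of 19965 inner bins (0.381%) passed. At 200 to 1000 counts the values were 33 of 1484 (2.22%), 31 of 1480 (2.09%) and 110 of 35217 (0.312%). Above 1000 counts they were 2.13% of first, 0.791% of last and 0.348% of inner bins. The called share of inner bins lay between 0.285% and 0.381% in all 4 depth classes. That of first bins was lowest in the class under 50 counts, and that of last bins was highest at 200 to 1000 counts.

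**Figure D4:**
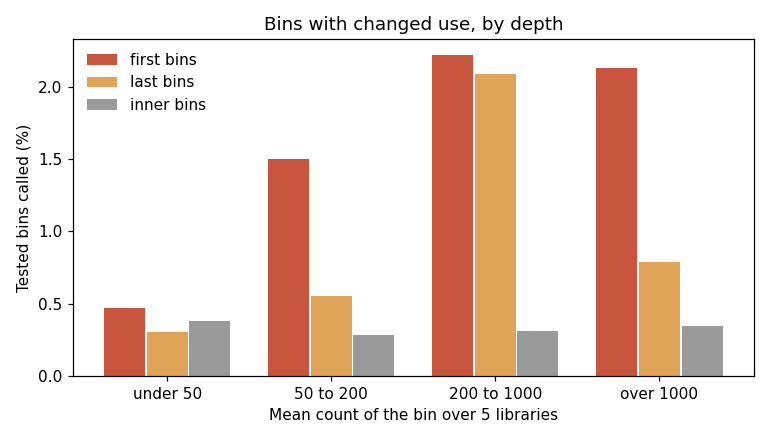
Percent of tested first, last and inner bins whose use differed (edgeR adjusted p under 0.05), in 4 classes of mean count over the 5 libraries. Under 50 counts the 3 kinds of bin stand at 0.307% to 0.470%, and at 200 to 1000 counts first and last bins stand at 2.22% and 2.09% and inner bins at 0.312%.

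By the number of bins in the gene, first bins passed in 1.36% of cases in genes of 10 to 14 bins, 1.78% at 15 to 19, 2.01% at 20 to 29 and 1.58% at 30 or more, and last bins in 0.670%, 1.29%, 1.40% and 0.973%. Inner bins passed in 0.277%, 0.36%, 0.336% and 0.315% in the same classes, and all tested bins in 0.361%. At the border of the rule, 12 of 963 tested outer bins (1.25%) passed in genes of 10 bins and 9 of 1119 (0.804%) in genes of 9 bins. The pooled share of the first bin there was 10.03% to 10.26% in wildtype and 9.71% and 9.78% in deleted libraries at 10 bins, and 9.46% to 10.1% against 9.03% and 9.33% at 9 bins. In all assembled genes of 3 to 9 bins, 14 of 3753 first bins (0.373%) and 17 of 3826 last bins (0.444%) passed, beside 40 of 16895 inner bins (0.237%). Of those called, 85.7% of first, 94.1% of last and 70% of inner bins were used less. The skew of called outer bins to less use was thus also seen in these shorter genes, on few calls. Their called shares, however, were near the 0.361% of all tested bins. Genes listed under a symbol are weakly counted in this table, and of their 978 tested outer bins in genes of at least 10 bins 2 passed (0.204%). Their pooled outer shares also lay lower in the deleted libraries, with 14.4% and 14.8% against 16.3% to 16.5% for first bins and 13.8% and 13.6% against 14.002% to 14.6% for last bins. With each of these genes given the same weight the groups overlapped, with a mean first share of 15.06% and 14.50% against 14.77% to 15.23% and a mean last share of 14.23% and 14.79% against 14.38% to 14.73%.

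Bins whose shares did not overlap between groups were counted as well, with no test. The deleted libraries were both lower in 942 of 4895 first bins (19.2%) and 931 of 4984 last bins (18.7%), against 12.3% of inner bins and 12.9% of all tested bins. They were both higher in 15.5% of first and 14.5% of last bins, against 15.4% of inner bins and 15.3% of all tested bins. All 118 outer bins called as used less were free of overlap, and so were 11 of the 13 called as used more. Called inner bins of the same genes were free of overlap in 223 of 242 and 85 of 92 cases. Calls and shares come from the same libraries, so the lack of overlap in called bins is no further support.

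The 70 first bins used less had a median log2 change of −0.80, and their median share was 4.54% in wildtype and 2.43% in deleted cells. For the 48 last bins used less the median log2 change was −0.86, with median shares of 6.07% and 3.22%. Of these 118 bins, 42 fell by over 2-fold, 26 at the first end and 16 at the last. Their wildtype shares ran from 0.0815% to 52.0% for first and from 0.141% to 66.1% for last bins, so they range from slivers of a gene to most of its counts. Relative to the bin's own mean, the median share of the first bins used less was 1.149, 1.19 and 1.24 in wildtype 1, 2 and 3, against 0.667 and 0.707 in the deleted libraries. These values describe bins selected on the same data and are no further test.

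The bins named next have the smallest p among called bins whose groups did not overlap, so their separation follows from the choice. At the first end, bin 1 of MSTRG.8730, a gene of 22 bins, had the smallest p. It held 3.68%, 4.45% and 3.86% of the gene's counts in wildtype 1, 2 and 3, against 1.35% and 1.14% in deleted 1 and 2. Both deleted shares were below every wildtype share, on 433, 477 and 867 counts in wildtype and 127 and 117 in deleted libraries. Its log2 change of use was −1.68 (edgeR adjusted p = 4.21e-17). The neighbouring bin 2 was used less as well, at 0.353% ± 0.0758 (SD, n = 3) in wildtype and 0.0963% ± 0.0158 (SD, n = 2) in deleted cells (log2 change −1.82; edgeR adjusted p = 0.00123). Bin 3 held 10.1% and 10.8% and did not pass. The summed counts of the gene did not pass either, with a log2 fold change of 0.07 (edgeR adjusted p = 0.487).

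Bin 1 of MSTRG.7745, a gene of 19 bins, held 3.36%, 3.58% and 3.77% in wildtype and 1.49% and 1.42% in deleted libraries. All 3 wildtype shares were above both deleted ones, and the log2 change was −1.29 (edgeR adjusted p = 2.17e-14). Only the outermost of the 3 bins examined was called: bin 2 held 10.05% ± 0.304 (SD, n = 3) in wildtype and 10.7% ± 0.164 (SD, n = 2) in deleted cells, and bin 3 4.26% and 4.62%, neither past the threshold. The gene's own log2 fold change was 0.18 (edgeR adjusted p = 0.0547).

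In the other direction, bin 1 of MSTRG.9230, a gene of 14 bins, rose from 2.24%, 2.25% and 2.33% in wildtype to 3.71% and 3.54% in deleted libraries. The log2 change was 0.67 (edgeR adjusted p = 0.000281). The groups did not overlap, but the call ended without deleted 1 (edgeR adjusted p = 0.201) and without deleted 2 (edgeR adjusted p = 0.0550). Bin 1 of MSTRG.4856, a gene of 13 bins, held 6.16%, 6.65% and 4.64% in wildtype and 11.3% and 8.81% in deleted libraries, with wildtype 3 the lowest and deleted 1 the highest. Its log2 change of 0.79 (edgeR adjusted p = 0.000550) was not called without deleted 1 (edgeR adjusted p = 0.999995). Both genes were lower in summed counts, with log2 fold changes of −0.34 and −0.81 (edgeR adjusted p = 0.00322 and 7.60e-05).

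At the last end, bin 24 of MSTRG.15733, its last, held 3.74%, 3.75% and 4.14% in wildtype and 1.43% and 1.45% in deleted libraries. The 2 deleted shares nearly coincide and lie far below the wildtype ones, and the log2 change was −1.43 (edgeR adjusted p = 2.36e-15). Bins 23 and 22 held 8.12% and 3.29% in wildtype and 7.98% and 3.14% in deleted cells, and did not pass. In MSTRG.10517, a gene of 28 bins, the last bin held 2.48%, 2.54% and 2.49% in wildtype and 1.11% and 1.13% in deleted libraries (log2 change −1.16; edgeR adjusted p = 9.96e-14). The change reached further in: bin 27 fell from 1.79% ± 0.111 (SD, n = 3) to 0.837% ± 0.0219 (SD, n = 2), and bin 26 from 0.267% ± 0.00351 to 0.112% ± 0.0198, with edgeR adjusted p = 1.04e-10 and 0.000308. All 3 bins were thus used less together, by log2 changes of −1.10 to −1.26. The summed counts of neither gene passed, at log2 fold changes of 0.09 and 0.10 (edgeR adjusted p = 0.289 and 0.304).

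Last bins used more were rare. The last of the 16 bins of MSTRG.3764 was a large part of its gene, with 28.0%, 28.9% and 22.9% in wildtype and 43.6% and 41.1% in deleted libraries. The deleted shares were both above the wildtype range, and the log2 change was 0.67 (edgeR adjusted p = 1.93e-05), not called without deleted 1 (edgeR adjusted p = 0.0732). Bin 13 of MSTRG.4864, its last, held 3.03%, 3.71% and 2.60% in wildtype and 6.26% and 5.73% in deleted libraries, on 62 to 94 counts per library. Its log2 change of 0.96 (edgeR adjusted p = 0.0263) was not called when wildtype 1, deleted 1 or deleted 2 was left out (edgeR adjusted p = 0.0941, 0.999995 and 0.563, in that order). Summed counts were higher for MSTRG.3764 and lower for MSTRG.4864, with log2 fold changes of 0.22 and −0.42 (edgeR adjusted p = 0.0280 and 0.00638). The only other last bin used more, named after its values were seen, was bin 32 of MSTRG.9398. It had 19, 2 and 3 counts in wildtype and 3 and 33 in deleted libraries. Its groups overlap and its rise rests on deleted 2, though it passed (log2 change 1.87; edgeR adjusted p = 0.0115).

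**Figure D5:**
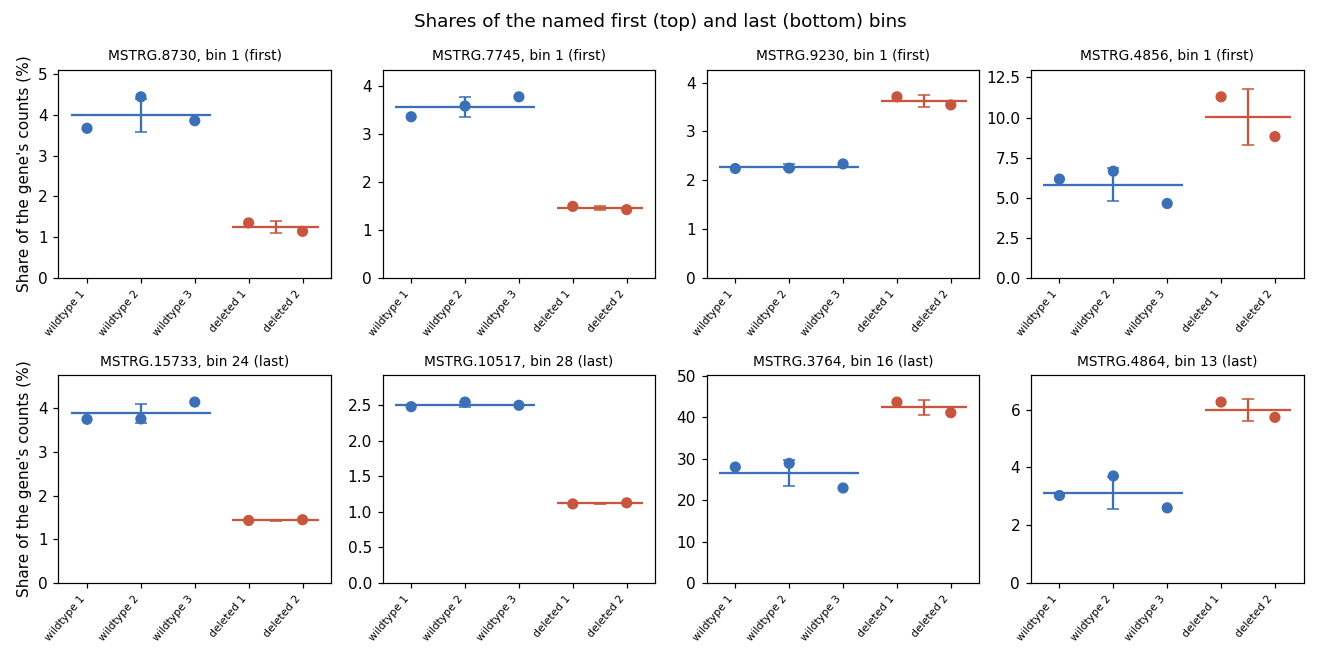
Share of the gene's counts, in percent, held by the 4 named first bins (top) and the 4 named last bins (bottom) in each library. Lines are group means and bars ± 1 SD (wildtype n = 3, deleted n = 2), and each axis starts at 0. Bins were named only if their groups did not overlap, so the 2 deleted libraries lie outside the wildtype range in all 8 panels. They lie below it in the left 2 columns and above it in the right 2.

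The following bins were also chosen after their values were seen, to show the extremes. Bin 1 of MSTRG.3610 had the lowest log2 change, on 2, 16 and 23 counts in wildtype (0.0237%, 0.220% and 0.175% of the gene) and 0 in both deleted libraries. A count of 0 over both allows a share of up to 0.0258% (3 counts, counting error only), which is above the share in wildtype 1 and below those in wildtype 2 and 3. Bin 1 of MSTRG.4934 had the highest, with 0.355%, 0.0913% and 0.131% in wildtype and 1.31% and 0.632% in deleted libraries, on 6 to 76 counts. Among well-counted bins, bin 1 of MSTRG.2739 held 51.3%, 51.0% and 53.8% of the gene in wildtype and 35.8% and 36.3% in deleted libraries (log2 change −0.53; edgeR adjusted p = 0.00310). The last bin of MSTRG.1355, bin 22, fell from 66.7%, 67.2% and 64.4% to 43.5% and 51.4% (log2 change −0.47; edgeR adjusted p = 0.0458). In wildtype both bins held most of their gene's counts.

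Both ends were tested in 3975 genes and both were called in 1, MSTRG.979, named after its values were seen. With 1.63% of first and 1.02% of last bins called, few such genes could occur, and the count says nothing about whether the ends changed together. Its first bin held 3.36% to 3.503% in wildtype and 2.07% and 1.93% in deleted libraries, and its last bin 11.73% to 12.01% against 6.16% and 5.88%. That gene also rose in summed counts, with a log2 fold change of 2.58 (edgeR adjusted p = 1.20e-06). The remaining 129 of 130 genes with a called outer bin had 1 such end, and in 25 of the 130 (19.2%) an inner bin passed too, against 226 of all 6858 member genes (3.30%). The bins of a gene are tested against the same gene total, so these calls are not independent. Next to the first bins used less, the second bin was tested in 64 of 70 genes, was also used less in 5 and used more in 1, and had a median log2 change of 0.02. Next to the last bins used less it was tested in 43 of 48, was also used less in 4, and had a median of −0.02. Adjacent bins may share reads, so calls in neighbours may not be independent.

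The balance of the ends was tested directly as the ratio of first-bin to last-bin counts within a gene. It differed in 115 of 3975 member genes (2.89%, edgeR adjusted p under 0.05), against 199 of all 8706 genes with both bins tested (2.29%). Those 199 include the 115 of the member genes, so these shares are not independent, and their difference was not tested. The ratio was lower in the deleted cells in 54 genes and higher in 61, and its median log2 change was −0.000905. Of the 115 genes, 60 had a called outer bin. The called ratios were thus split almost evenly between the ends. Leaving out deleted 1 gave 37 such genes, and leaving out deleted 2 gave 27.

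The summed counts of these genes were tested as well. Of the 130 genes with a called outer bin, 55 (42.3%) also differed in summed counts, 28 higher and 27 lower in the deleted cells. Among all tested member genes 2803 of 6774 differed (41.4%), and among all 16259 tested genes 39.7% (edgeR adjusted p under 0.05), so the 42.3% is near the background. Without deleted 1 or deleted 2 the counts were 1520 and 1857 member genes, and 30 and 36 of the 130. In bulk RNA, fewer cells of a type and less RNA per cell cannot be told apart, and this holds for shares of transcripts too.

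The number of calls depended on single libraries. First bins used less numbered 22 without deleted 1, 22 without deleted 2 and 109 without wildtype 3, and last bins used less 12, 21 and 87. A lone deleted library is assumed there to vary like the wildtype ones. In the same settings 0.106%, 0.116% and 0.615% of inner bins passed, against 0.478%, 0.498% and 2.69% of first bins and 0.275%, 0.471% and 1.94% of last bins. The share called was higher in both kinds of outer bin than in inner bins in each of them. With no strand setting stated, the reads of a gene and of any overlapping or antisense partner are not separable.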

How the data were processed

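The authors deposited whole-number read counts per exon bin for 5 libraries. The submitters' processing notes list the aligner STAR, without a version, and genome build mm9. No source used here gives the counter, annotation or strand setting. The 56 spike-in rows were left out. Bins were kept by edgeR's filterByExpr in genes with at least 2 kept bins, scaled by TMM on gene sums, fitted with glmQLFit and tested with diffSpliceDGE, which sets each bin against its whole gene (R 4.3.3, edgeR 4.0.16). P-values were adjusted by Benjamini-Hochberg over all bins tested, with 0.05 as the threshold. The first-to-last ratio used the same test on those 2 bins per gene, and summed counts used edgeR's quasi-likelihood F test. A share is a bin's percent of all counts of its gene. Named bins were, for each end, the 2 used less and the 2 used more with the smallest p among bins averaging 50 counts or more whose groups did not overlap. Alternatives used limma 3.58.1, DESeq2 1.42.0, other filters, scaling and definitions of an outer bin, the replicate block, and each library left out. Scripts were tested on simulated data. Members and rules were chosen with earlier results of these data known. Counts are not independent molecules, so limits from counts cover counting error only.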

Additional observations from a re-analysis of the deposited data

How the results depend on the processing

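Scaling by RLE, no low-count filter, TMM on bins (chosen after seeing the data) and inner bins summed to 1 value kept the counts of first and last bins in each direction within 1.5 times. With inner bins summed, 0 were used less and 6 more, since 1 value per gene replaced many. A mean count of at least 50 gave 61 inner bins used more. In genes of at least 20 bins, a smaller set, first bins used less and more numbered 26 and 4, last bins 20 and 1, and inner bins 139 and 50. Limma voom gave 159 and 30, 151 and 22, and 429 and 206 in the same order, and DESeq2 164 and 26, 154 and 13, and 477 and 283; the cause was not tested. Taking the outermost tested bin instead gave 10 last bins used more. With the replicate block, 18 first bins were used more, 79 last bins less and 6 more, and 381 inner bins less and 223 more, and the last bin of MSTRG.4864 was not called (edgeR adjusted p = 0.106). The labels pair nothing beyond a number, and wildtype 3 has no partner. Deviations of same-numbered libraries correlated at −0.020 and −0.00174 over 9879 outer bins, and those of crossed pairs at 0.020 and 0.00174. With only 2 deleted libraries these values mirror each other, so they say little about pairing.

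Leaving out 1 library at a time gave 22 to 109 first bins used less and 2 to 20 more, 12 to 87 last bins less and 2 to 8 more, and 80 to 383 inner bins less and 31 to 248 more. The first-to-last ratio differed in 27 to 124 genes, summed counts in 1520 to 4040 member genes and in 30 to 79 of the 130 genes with a called outer bin. The pooled difference in share, −0.21 points for first, −0.28 for last and 0.49 for inner bins, was −0.13, −0.19 and 0.32 in genes of at least 20 bins, where 1 bin is a smaller part. Without the 100 most counted genes it was −0.36 for last and 0.59 for inner bins, and without genes with a called outer bin −0.18 for first bins, both chosen after seeing the data. The pooled differences were recomputed over these subsets of the genes, with no library left out, and none changed direction. No named bin changed direction in the alternatives that tested it again. All 4 named bins used less kept their call in the 13 alternatives that tested them again, over log2 changes of −1.80 to −1.15, while the 4 used more lost it in 1 to 4 of those 13.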
